A study of Homo sapiens with 4 samples.

Results

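The genes described here drive and guard mitosis: the kinases AURKA, AURKB, PLK1, BUB1, BUB1B and TTK, the checkpoint protein MAD2L1, the activator CDC20, and the B-type cyclins CCNB1 and CCNB2. Members were all gene probes of the array whose gene name equals 1 of these 10, which gave 12 probes of 34127 on the array, and 10 gene names of 27224. PLK1 and CCNB1 had 2 probes each. RNA of LNCaP cells, an androgen-dependent human prostate cancer line, and of PC3 cells, an androgen-independent one, was hybridised to 1-colour Agilent arrays. Each line was grown in RPMI medium with fetal bovine serum and measured once untreated (control) and once after 24 h with 10 µM of the statin atorvastatin (ATO). The labels name no vehicle for the controls and give no genetic change in any group, and the cells were established lines, so that each value stands for 1 RNA sample of 1 line. Each line thus had 1 control and 1 ATO array, all 4 on 1 slide, and the place on the slide cannot be told apart from the group.

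At the entry into mitosis, cyclin B binds the kinase CDK1, and PLK1 and the Aurora kinases act with it to build the spindle and to attach chromosomes to it. TTK and BUB1 act at kinetochores that lack attachment, and MAD2L1 and BUB1B hold back CDC20 until all chromosomes are attached. CDC20 then activates the anaphase-promoting complex (APC/C), which marks cyclin B for destruction. Transcripts of these genes build up late in the cell cycle in dividing cells, so that in a bulk culture fewer cells in G2 and M phase and less RNA per such cell cannot be told apart.

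The probes lie in the transcripts on the hg18 build of the files. Of the 12, 4 cross an exon junction, which ties their signal to spliced RNA, and their sequences are given for that reason, 5′ to 3′ in the direction of the transcript. The AURKB probe spans chr17:8051380-8051642 on the minus strand, the BUB1 probe chr2:111112171-111113812 on the minus strand, the brighter PLK1 probe chr16:23608471-23608713 on the plus strand, and the brighter CCNB1 probe chr5:68507119-68508879 on the plus strand.
AURKB: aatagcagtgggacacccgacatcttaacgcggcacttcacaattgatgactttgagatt
BUB1: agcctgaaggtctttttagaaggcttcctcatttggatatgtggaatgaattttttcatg
PLK1: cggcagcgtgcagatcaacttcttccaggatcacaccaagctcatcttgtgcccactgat
CCNB1: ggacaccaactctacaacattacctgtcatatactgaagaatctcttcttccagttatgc

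Promoters of these genes are known to carry the cell cycle genes homology region (CHR), the element through which the DREAM and MuvB complexes act, and CCAAT boxes, which NF-Y binds. RefSeq windows of GRCh38.p14, from 250 bases before to 50 bases after the start site, were at hand for 8 of the 10 genes, all but AURKA and TTK. The 100 bases before the start site are given for 4 genes with CHR letters there and for CCNB1, where of the letters searched only CCAAT was found. Capitals mark TTTGAA or TTCGAA (CHR) and CCAAT on this strand. The stretches lie at chr16:23678789-23678888 for PLK1, chr15:59105046-59105145 for CCNB2, chr1:43358881-43358980 for CDC20, chr15:40160969-40161068 for BUB1B and chr5:69167050-69167149 for CCNB1, all on the plus strand.
PLK1: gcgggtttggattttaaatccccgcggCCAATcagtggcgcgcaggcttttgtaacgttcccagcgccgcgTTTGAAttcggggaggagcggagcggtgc
CCNB2: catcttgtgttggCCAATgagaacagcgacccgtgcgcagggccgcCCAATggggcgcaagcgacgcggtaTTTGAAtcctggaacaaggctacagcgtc
CDC20: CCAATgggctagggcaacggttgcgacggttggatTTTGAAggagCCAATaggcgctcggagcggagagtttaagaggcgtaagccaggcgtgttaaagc
BUB1B: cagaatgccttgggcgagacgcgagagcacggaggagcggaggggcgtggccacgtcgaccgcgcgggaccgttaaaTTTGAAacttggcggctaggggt
CCNB1: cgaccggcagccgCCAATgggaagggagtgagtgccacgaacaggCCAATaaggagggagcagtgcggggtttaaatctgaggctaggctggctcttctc

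All 10 genes were well above background on all 4 arrays, so that each ratio below is measured on both sides. Between 48.5% and 52.9% of the gene spots of an array were well above background, and 0 were saturated. The line labels were borne out by their markers: TMPRSS2 was 17.5-fold higher in LNCaP control, and VIM was 151-fold higher in PC3 control. Intensities are the processed signal of each array in scanner units, before scaling. Ratios are log2 of ATO over control after each array was divided by its 75th percentile, which was 496.8 units for control and 533 for ATO in LNCaP, and 588 and 569 in PC3. Below, intensities always run from control to ATO, with LNCaP before PC3. Differences between arrays have no replicate check, and their number limits the precision. As a technical scale only, the SD of a single-spot log2 ratio was taken from copies of 1 probe in the brightness range of these genes. Its median was 0.13 in each line (418 probes in LNCaP, 419 in PC3), and its 95th percentile 0.28 in LNCaP and 0.27 in PC3. Spot SD below means the median, and a single gene may spread more.

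After ATO, every one of the 10 genes read lower than in its control in both lines, except that 4 of them read slightly higher in LNCaP when arrays were scaled by spike-in probes and 2 in PC3 when scaled by the 50th percentile. The differences were small in LNCaP, with a median log2 ratio of -0.30 and a range from -0.45 to -0.13, and somewhat larger in PC3, with a median of -0.40 and a range from -0.70 to -0.14 (the median was -0.20 there with the 50th percentile). In percent, the median was -18.8% in LNCaP and -24.0% in PC3. MAD2L1 in PC3 was the single value that passed 1.5-fold. For scale, 46.9% of the 12236 genes measured on both LNCaP arrays and 48.7% of the 12513 measured on both PC3 arrays were lower after ATO by any amount.

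**Figure D1:**
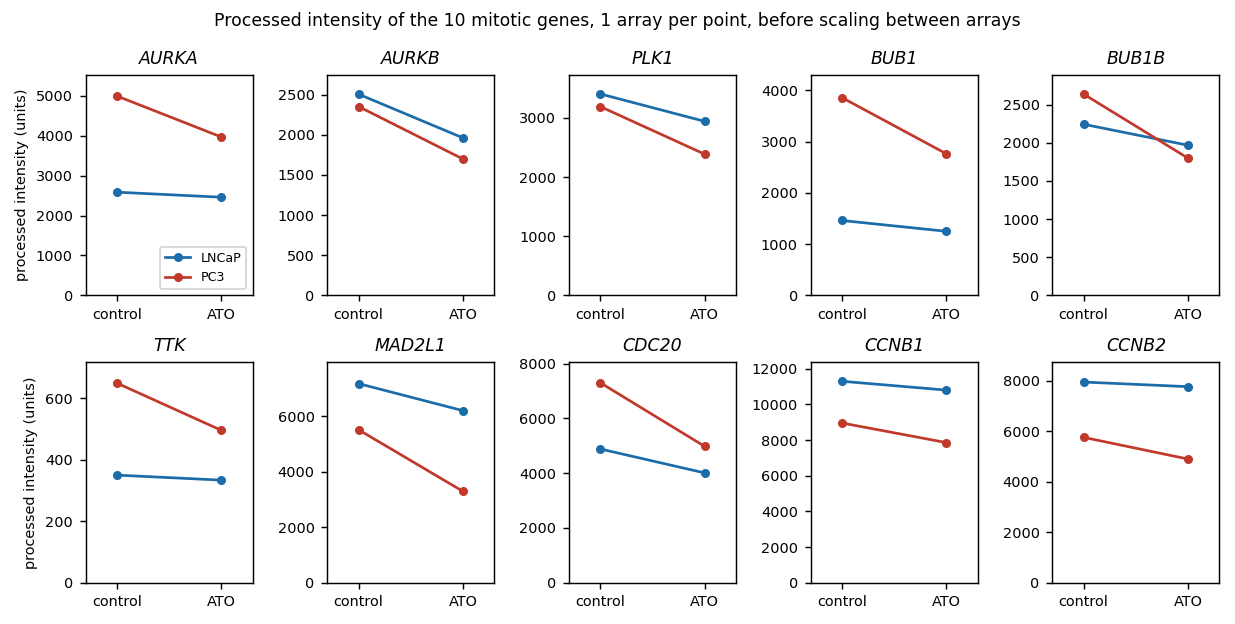
Processed intensity in scanner units (linear axis from 0, 1 panel per gene, brightest probe) in control and ATO arrays, with LNCaP in blue and PC3 in red and 1 array per point. Before any scaling between arrays all 20 lines slope down, and that of PC3 is the steeper one for every gene, as for MAD2L1 (5519 to 3295 units). The slopes include the brightness of the arrays, whose 75th percentile rose from 496.8 to 533 units in LNCaP and fell from 588 to 569 in PC3.

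The Aurora and Polo kinases were lower after ATO in both lines, apart from AURKA in LNCaP with spike-in probes (0.03). AURKB, the kinase of the chromosomal passenger complex, went from 2505 to 1961 units in LNCaP and from 2352 to 1698 units in PC3. At the main scaling both ATO arrays lay below both controls, by 0.12 on the scaled log2 values at the nearest, which is under 1 spot SD. With the 50th percentile PC3 control lay below LNCaP ATO (-0.78 and -0.47 against LNCaP control). The log2 ratios of -0.45 in LNCaP and -0.42 in PC3 were each more than 2 spot SD below 0 at the main scaling. PLK1, which acts at centrosomes and kinetochores, went from 3403 to 2939 units and from 3189 to 2385 units, with ratios of -0.31 and -0.37. The other PLK1 probe, a single spot at chr16:23599752-23599811, went from 963 to 768 units and from 790 to 654 units, with ratios of -0.43 and -0.22. Both PLK1 probes were thus lower after ATO in both lines, but they put the lines in opposite order. AURKA, which matures centrosomes and builds the spindle poles, went from 2585 to 2458 units in LNCaP and from 4992 to 3966 units in PC3. Its ratios were -0.17 in LNCaP and -0.28 in PC3, and the LNCaP value lay within 2 spot SD of 0. The AURKA spot on the PC3 ATO array had a local background 2.44 times the median of that array, and its part in the PC3 value was not tested. The PC3 ratio of AURKA was -0.45 with the median ratio of the neighbouring spots subtracted, -0.11 with normexp background correction and -0.09 with the 50th percentile.

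The checkpoint kinases were lower in both lines, with the larger differences in PC3 at this scaling but not for BUB1 and TTK with the 50th percentile (-0.24 and -0.15 in PC3). BUB1, a kinase that recruits checkpoint proteins and shugoshin to centromeres, went from 1462.5 to 1251 units in LNCaP and from 3860 to 2763 units in PC3. Its ratios were -0.33 and -0.43, and both PC3 arrays lay above both LNCaP arrays. BUB1B (BUBR1), a part of the mitotic checkpoint complex, went from 2243 to 1968 units and from 2638 to 1799 units, with ratios of -0.29 and -0.50. Here the lines did not separate, since the controls of the 2 lines differed by 0.01 on the log2 scale. TTK (MPS1), the kinase at the top of the checkpoint, went from 350 to 334 units and from 649 to 496 units. Its ratios were -0.17 and -0.34, of which the LNCaP value lay within 2 spot SD of 0.

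MAD2L1 (MAD2) binds CDC20 directly, and it had the lowest PC3 ratio of the 10 genes at the main scaling, though with normexp BUB1B stood level with it (-0.61 each). It went from 7183 to 6206 units in LNCaP and from 5519 to 3295 units in PC3. The PC3 ATO array stood apart from the other 3, and after scaling MAD2L1 fell 1.62-fold in PC3, by 0.70 on the log2 scale, against a ratio of -0.31 in LNCaP. The fall in PC3 missed 1.5-fold with the 50th percentile. CDC20, the target of MAD2L1 and BUB1B, went from 4887 to 4012 units and from 7306 to 4981 units. Its ratios were -0.39 and -0.50, and the scaled PC3 ATO value lay 0.17 below that of LNCaP control on the log2 scale.

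The B-type cyclins were the genes within 2 SD of a single spot in both lines, though CCNB1 was not within 2 of its own smaller SE. CCNB1, the cyclin that brings CDK1 into mitosis, has a probe printed 10 times on the array and is the best measured of the genes. From 9 or 10 unflagged spots an array it went from 11298 to 10802 units in LNCaP and from 8959 to 7860 units in PC3. Its log2 ratios were -0.17 ± 0.06 in LNCaP and -0.14 ± 0.05 in PC3 (SE over spots of 1 array pair, a technical error). The other CCNB1 probe, a single spot at chr5:68509628-68509687, went from 1420 to 1534 units and from 1116 to 870 units, with ratios of 0.01 and -0.31. The probes of CCNB1 therefore disagreed in LNCaP, where the single spot showed no lower signal, and in PC3 in size; its local background on the PC3 ATO array was 1.82 times the array median. CCNB2, which sits at the Golgi and shares the partner kinase, went from 7955 to 7771 units and from 5763 to 4903 units. The ratios of CCNB2 were -0.13 and -0.18, and with neighbouring spots subtracted they were -0.23 and -0.03.

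**Figure D2:**
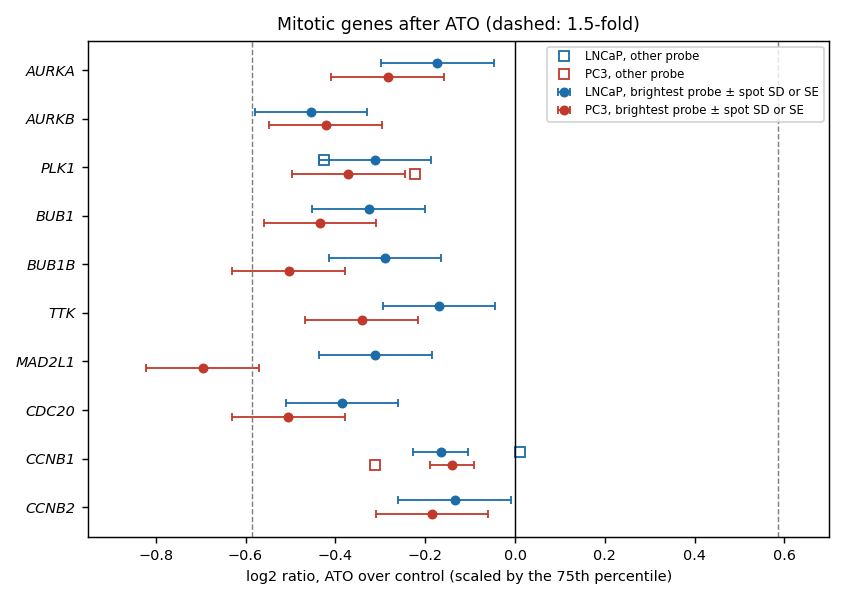
Log2 ratio of ATO over control (x axis, arrays scaled by the 75th percentile) for each gene in LNCaP (blue) and PC3 (red), where filled circles are the brightest probe, open squares the other probe of PLK1 and CCNB1, and whiskers the spot SD of 0.13, or for CCNB1 the SE over its spots. All filled circles lie left of 0 at this scaling (with spike-in probes 4 turn positive in LNCaP, with the 50th percentile 2 in PC3), and MAD2L1 in PC3 alone lies past the dashed line at 1.5-fold.

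Lower by more than 2 SD of a single spot were 6 of the 10 genes in LNCaP (all but AURKA, TTK, CCNB1 and CCNB2), against 7.7% of 12236 measured genes. In PC3 they were 8 (all but the cyclins), against 23.1% of 12513. Both counts use the median spot SD, and some probes spread more. By the SE over its own spots CCNB1 was beyond 2 errors in both lines, a scale not applied to all genes. The number at least 1.5-fold lower was 0 in LNCaP, where 1.99% of 13739 genes were, and 1 in PC3, where 10.3% of 13815 genes were, so that at this threshold the shares did not stand out from all genes. At 20% below control or lower, the number was 3 in LNCaP (AURKB, BUB1 and CDC20), where 6% of all genes were that much lower, and 7 in PC3 (all but AURKA, CCNB1 and CCNB2), where 21.5% were. The counts at 20% rest on the scaling, being 0 in LNCaP and 8 in PC3 with spike-in probes, and 5 and 1 with the 50th percentile. The median of all measured genes was 0.01 in both lines, with an SD over genes of 0.24 in LNCaP and 0.44 in PC3. In LNCaP 5.69% of measured genes had a ratio below the median of the 10 genes, and in PC3 14.3% did. The SD over the 10 genes themselves was 0.11 in LNCaP and 0.16 in PC3.

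The scaling sets where 0 lies. The 50th percentile was a dim signal, at 31.7 units for control and 34.4 for ATO in LNCaP, and 51.1 and 43.1 in PC3. Only 48.5% to 52.9% of the gene spots of an array were well above background. Spike-in probes moved the median of all measured genes in LNCaP from 0.01 to 0.21, and the 50th percentile moved it in PC3 from 0.01 to 0.21. These shifts are the same for every gene of an array and leave the place of the 10 among all genes as it was. With quantile normalization, cyclic loess and normexp, which are not such shifts, all 10 genes were below the median of all genes in both lines, and the median of the 10 minus that of all genes ran from -0.33 to -0.29 in LNCaP and from -0.42 to -0.37 in PC3. With the spike-in probes the ratios of AURKA, TTK, CCNB1 and CCNB2 in LNCaP were 0.03, 0.03, 0.04 and 0.07. With the 50th percentile those of CCNB1 and CCNB2 in PC3 were 0.05 and 0.01.

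**Figure D3:**
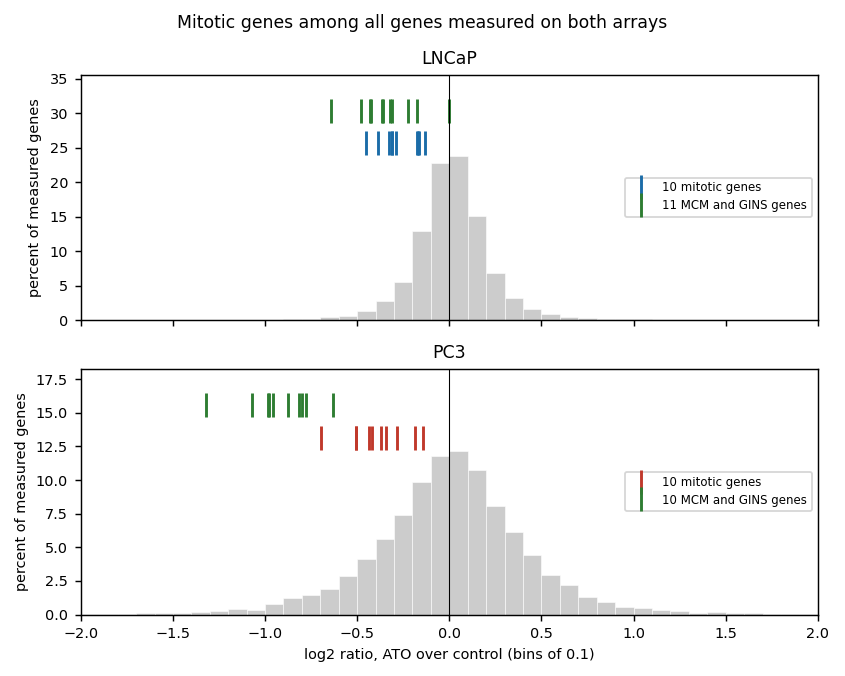
Distribution of log2 ratios of ATO over control over all genes measured on both arrays (grey bars, percent of 12236 genes in LNCaP and 12513 in PC3, bins of 0.1), with coloured ticks for the 10 mitotic genes and green ticks for the MCM and GINS genes measured on both arrays. In LNCaP the green and blue ticks overlap, while in PC3 MAD2L1 is the single mitotic gene within the range of the MCM and GINS genes, whose highest ratio was -0.63.

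The lines were also compared in the size of their ATO ratios. The PC3 ratio was the lower one for 8 of the 10 genes, with AURKB and CCNB1 the other way, and the median difference of PC3 minus LNCaP was -0.11. The difference rests on the scaling: with the 50th percentile 2 genes had the lower ratio in PC3 and the median difference was 0.10, and with spike-in probes all 10 had and it was -0.39. The spot SD of such a difference was 0.18, and MAD2L1 (-0.38) and BUB1B (-0.21) were the genes beyond it. With 1 array in each group this difference could not be tested. No share over all genes is given beside these counts, so they cannot be read as particular to these genes.

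Between the untreated lines, the same genes did not shift together. BUB1 was 2.23-fold higher in PC3 control than in LNCaP control, AURKA 1.63-fold, TTK 1.57-fold and CDC20 1.26-fold, so that 1 of 10 genes was at least 2-fold higher in PC3, against 20.6% of 15237 genes. In the other direction, CCNB2 was 1.63-fold higher in LNCaP control, MAD2L1 1.54-fold, CCNB1 1.49-fold, and AURKB and PLK1 1.26-fold each, so that 0 genes were at least 2-fold lower in PC3, against 19% of all genes. BUB1B was level between the lines, with a difference of -0.01 on the log2 scale and a spot SD of 0.13. Higher in PC3 were thus 3 of the kinases and CDC20, and higher in LNCaP were both cyclins, MAD2L1, AURKB and PLK1. These splits move with the scaling as well, since the median of the 10 was -0.17 here, -0.62 after scaling by the 50th percentile and 0.34 after scaling by spike-in probes, while that of all measured genes was -0.12, -0.56 and 0.40.

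Put in order over the 4 arrays, LNCaP control was the highest for 6 genes and PC3 control for 4. The same counts over all genes are not given here, so this split cannot be read as particular to these genes. For BUB1, AURKA and TTK both PC3 arrays came before both LNCaP arrays, and for PLK1, MAD2L1, CCNB1 and CCNB2 both LNCaP arrays came before both PC3 arrays, with the control first in each line. This order holds at the main scaling, and with spike-in probes PLK1 was 0.18 higher in PC3 control than in LNCaP control. Neighbours within 1 spot SD of each other were LNCaP ATO and PC3 control for PLK1 (0.03), PC3 control and LNCaP ATO for AURKB (0.12), and the controls for BUB1B (0.01). CDC20 ran from PC3 control through LNCaP control and PC3 ATO to LNCaP ATO, with gaps of 0.34, 0.17 and 0.22.

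A single fit could use all 4 arrays: limma on ATO against control with the cell line as a block. It leaves 1 residual degree of freedom, which is the difference between the ATO ratios of LNCaP and PC3. None of 11902 genes had an adjusted p under 0.05 (0%, two-sided, Benjamini-Hochberg), while 532 had an unadjusted p under 0.05, of which 295 were lower after ATO (2.48% of the genes). All 10 mitotic genes had a negative coefficient, and their smallest adjusted p in limma was 0.762. Without adjustment 3 of the 10 came under 0.05, namely AURKB with a coefficient of -0.44 ± 0.13 (SE), CDC20 with -0.44 ± 0.13 and MAD2L1 with -0.50 ± 0.16. That count was 0 with the 50th percentile or with spike-in probes, and 6 when limma was given an intensity trend. The smallest coefficient was that of CCNB1, at -0.15 ± 0.13.

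A wider list of 93 other mitosis genes, of which 92 were on the array and 91 gave a value in each line, was set beside the 10. In LNCaP its median ratio was -0.17, with 78 of 91 genes lower (0.03 with spike-in probes), and in PC3 it was -0.33, with 83 of 91 lower (-0.14 with the 50th percentile). At 1.5-fold, 2 genes were lower and 1 higher in LNCaP, and 17 were lower and 1 higher in PC3. The 3 in LNCaP were the kinetochore genes SPC25 (-0.83) and CENPI (-0.68) and the APC/C subunit ANAPC10 (0.68), named after their values were seen, and none of the 3 passed in PC3. In limma over both lines 15 of the 91 had an unadjusted p under 0.05, all of them lower, and 0 an adjusted one. The unadjusted count was 5 with the 50th percentile, 1 with spike-in probes and 25 with an intensity trend.

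By role, CDK1 and its regulators had the lowest median in PC3, at -0.53 against -0.23 in LNCaP, with 4 of 10 genes at least 1.5-fold lower in PC3. CDC25A, the phosphatase that activates CDKs, had the lowest PC3 ratio of the list, at -1.36 (1746 to 658 units), with -0.16 in LNCaP (1702 to 1635 units). The CDK subunit CKS1B, the highest of this group in PC3, was at -0.09 in both lines. CDK1 itself, named after its values were seen because it is the partner of cyclin B, had ratios of -0.38 and -0.53, lower than those of either cyclin.

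The median was -0.32 in LNCaP and -0.31 in PC3 for partners of the Aurora and Polo kinases and other mitotic kinases. HASPIN, the histone H3 kinase that places the Aurora B complex at centromeres, had the lowest ratio of these in PC3, at -0.91, with -0.39 in LNCaP. Its signal was dim, at 127 to 66 units in PC3. The centrosome kinase NEK2 had the highest in PC3, at -0.13, with -0.18 in LNCaP. For checkpoint adaptors, which include the partners of MAD2L1 and BUB1, it was -0.16 and -0.30. Of these SPDL1, which brings dynein to kinetochores, had ratios of -0.17 in LNCaP and -0.61 in PC3, and MAD2L1BP, which takes MAD2L1 off its complexes, -0.02 in both.

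Kinetochore and centromere genes had medians of -0.25 and -0.37 and were lower in 19 of 19 cases in both lines. SPC24 of the NDC80 complex fell 2.07-fold in PC3 (-1.05) with a ratio of -0.05 in LNCaP, where its spot lay in a bright local background, and SKA1 was the highest in PC3, at -0.06, with -0.30 in LNCaP. The group of the APC/C with its enzymes, inhibitors and substrates had the highest median in PC3, at -0.17, against -0.15 in LNCaP. FBXO5 (EMI1), an APC/C inhibitor, fell 2.06-fold in PC3 (-1.04) with a ratio of -0.37 in LNCaP. The APC/C subunit ANAPC11 was at -0.11 in LNCaP, where its spot lay in a bright local background, and at 0.31 in PC3.

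The LNCaP median of spindle and cytokinesis genes was -0.13, and the PC3 median was -0.36. ANLN (anillin), a scaffold of the cleavage furrow, was at -0.97 in PC3, and CEP55, which acts at the midbody, at 0.04 in PC3 and -0.12 in LNCaP. The transcription factors of mitotic genes had medians of -0.05 and -0.34. Subunits of NF-Y, which binds CCAAT boxes, lay at both ends in PC3, with NFYB at -0.76 and NFYA at 0.64, and NFYA read -0.06 in LNCaP. FOXM1 and MYBL2, named after their values were seen because they act on late cell cycle genes, had ratios of -0.32 and -0.27 in LNCaP and -0.32 and -0.36 in PC3.

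**Figure D4:**
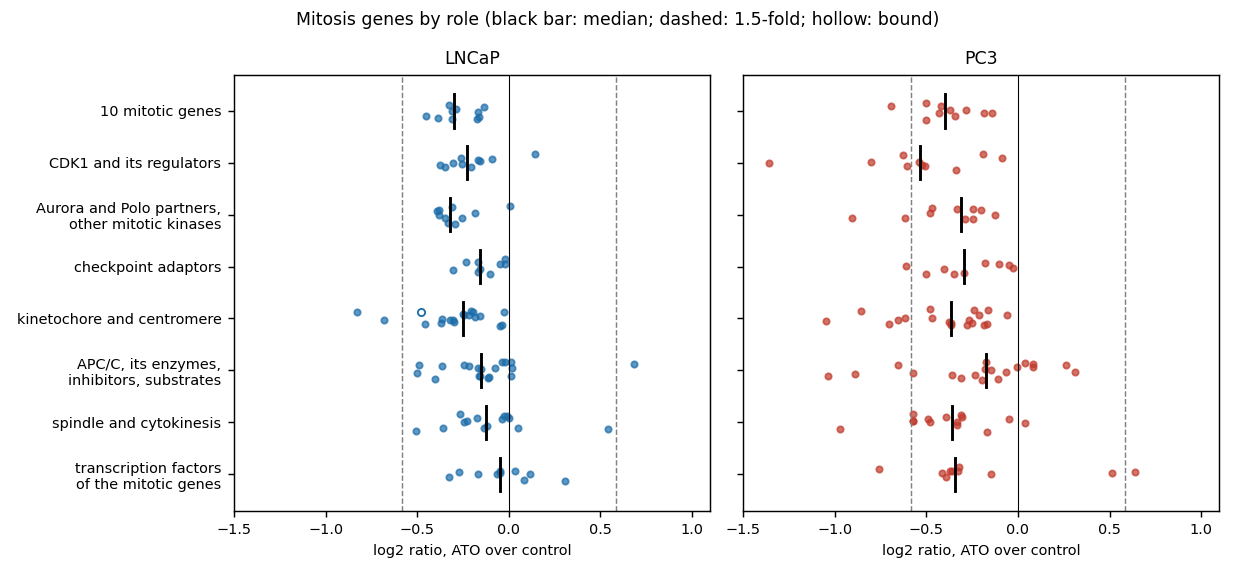
Log2 ratios of ATO over control (x axis) for the 10 mitotic genes and for the listed mitosis genes by role (rows) in LNCaP (left) and PC3 (right), 1 point per gene, with black bars at the medians, dashed lines at 1.5-fold and a hollow point for a bound. The medians lie below 0 in every row of both panels at this scaling, and the genes past 1.5-fold in PC3 reach -1.36 (CDC25A), well beyond the lowest of the 10 at -0.70 (the median of the whole list turns to 0.03 in LNCaP with spike-in probes).

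DNA replication genes gave a comparison from an earlier cell cycle phase. The 11 MCM and GINS genes, which act in DNA replication in S phase, had a median of -0.36 in LNCaP, close to the -0.30 of the mitotic genes. In PC3 their median was -0.96, against -0.40. In PC3 all 11 fell at least 1.5-fold (1 of them as a bound), and in LNCaP 1 of 11 did, MCM10, at -0.64 there and at least 3.46-fold lower in PC3. Mitotic kinesins, the motors of the spindle, had medians of -0.35 and -0.46, with 4 of 12 at least 1.5-fold lower in PC3 and 1 of 12 in LNCaP. KIF18B entered as a bound in both lines, at 0 in LNCaP and, among the 4, at least 1.79-fold lower in PC3. The kinesin past 1.5-fold in LNCaP was KIFC1, at -0.85 in LNCaP, in a bright local background, and -0.76 in PC3, named after its values were seen. The proliferation markers were at -0.06 in LNCaP, in a bright local background, and -1.03 in PC3 for MKI67, at -0.37 and -0.81 for TOP2A, and at -0.31 and -0.96 for PCNA. All 3 markers thus fell past 1.5-fold in PC3, where 9 of the 10 mitotic genes did not, and all 3 had a lower ratio there than any of the 10. These are values of 1 array pair a line, and the difference between the lists was not tested.

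The genes whose profile over the 4 arrays was nearest to the mean profile of the 10 were found among 11006 genes well above background on all arrays, by Euclidean distance of centred log2 values. Apart from an unnamed transcript, these were PIGN (distance 0.04), PPP1CC (0.05), NUDC (0.05) and NUF2 (0.05). PIGN acts in GPI anchor synthesis, PPP1CC is a catalytic subunit of protein phosphatase 1, NUDC is a dynein-associated chaperone, and NUF2 is a subunit of the NDC80 complex at kinetochores. Their ratios were between -0.33 and -0.21 in LNCaP and between -0.42 and -0.37 in PC3, but 4 arrays make a near match easy. The 10 themselves lay between 0.12 (BUB1B) and 1.14 (BUB1) from their own mean, since the lines differ in level from gene to gene.

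In the promoter windows, CHR letters (TTTGAA or TTCGAA, either strand) were found for 6 of 8 genes (75%), against 16.6% of 27305 windows of the same length. CCAAT letters (either strand) were found for 7 of 8 (87.5%), against 35.7%, and both for 5 of 8 (62.5%), against 6.58%. PLK1 and CCNB2 hold TTTGAA at the same distance, from 29 to 24 bases before the start site. TTTGAA stands 23 to 18 bases before it in BUB1B and 65 to 60 bases before it in CDC20, and 24 to 29 bases after it in MAD2L1, while BUB1 has TTCGAA from 1 to 6. CCNB1 and AURKB hold neither TTTGAA nor TTCGAA in this window, and no other form of the element was searched for. Of the wider mitosis list 39 of 77 windows (50.6%) held CHR letters and 46 (59.7%) CCAAT, and of the MCM and GINS genes 1 of 8 (12.5%) held CHR letters and 6 (75%) CCAAT. At the main scaling, AURKB had the lowest ratio of the 10 in LNCaP (-0.45) and one close to their median of -0.40 in PC3 (-0.42). CCNB1 was at -0.17 in LNCaP and, as the highest of the 10, at -0.14 in PC3. A match of letters is a description and not a site.

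**Figure D5:**
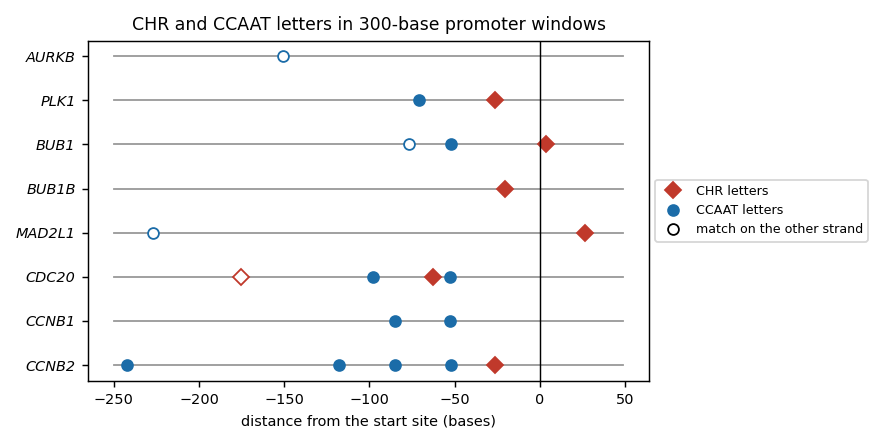
Positions of CHR letters (red diamonds) and CCAAT letters (blue circles) in the RefSeq promoter windows of 8 genes, by distance from the start site in bases, with open symbols for matches on the other strand. The CHR letters nearest the start site lie within 65 bases of it in 6 of the 8 genes, and CCNB2 holds 4 CCAAT.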

How the data were processed

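Total RNA of LNCaP and PC3 cells, untreated or exposed to 10 µM ATO for 24 h, was labelled in 1 colour and hybridised to 4 Agilent arrays of 1 slide. The deposited scanner files give a linear intensity for each spot, made by Agilent Feature Extraction 9.5.3.1 per the file headers and with background subtracted by the authors' software. The deposited value table holds a ratio for each probe. Between 99.2% and 99.9% of its values above 1 lay within 2% of the processed signal divided by its 75th percentile, so its scale and direction are those used here. The medians of its columns were 0.07 to 0.09 and its lowest value 0.03. The labels and methods do not state its centring or how the software GeneSpring was set.

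Outlier spots were left out, log2 signals of the copies of a probe were averaged, and the 75th percentile over probes was subtracted. A gene was read from its brightest probe with unflagged spots on all arrays, the other probe being given beside it, and genes were matched to the array by current or older symbol and are given by the current one. A probe was taken as well above background if over 50% of its unflagged spots had that call. On 1 array of 2, it gave a bound against the higher of its own value and the lowest value well above background, written as at least. Changes within a line were counted at 1.5-fold and those between untreated lines at 2-fold, with no p-value, as each group had 1 array. In limma 3.58.1 (R 4.3.3) with the block, the residual of a gene is the difference between its ATO ratios in LNCaP and PC3, moderated over genes. The p-values thus measure no spread between replicate arrays.

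The spot SD of a log2 ratio is the median over probes with copies on the array. Beside the 10 genes, the text names in each role group of the mitosis list the gene lowest and the gene highest in PC3 that was well above background on all arrays, genes of that list changed 1.5-fold alike in both lines (0 were found), the 5 genes of nearest profile, and markers of the lines and of proliferation. The genes and lists were chosen with earlier results of these data known. Alternatives were scaling by the 50th percentile, quantile normalization, cyclic loess or 6 spike-in probes, normexp background correction with an offset of 50, all spots, the mean of all probes, the deposited table, subtraction of the median ratio within 10 rows and columns, bright local backgrounds (over 1.5 times the array median) left out, no filter on dim probes, and other thresholds. Promoters were taken from RefSeq windows of GRCh38.p14, which held 8 of the 10 genes, and 77 of the 93 of the mitosis list.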

Additional observations from a re-analysis of the deposited data

Results flagged for a closer look

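ANLN and NFYB, both of the mitosis list, moved in opposite directions in the lines. ANLN was 0.54 higher on the log2 scale after ATO in LNCaP (604 to 944 units) and -0.97 in PC3 (2754 to 1357 units). NFYB was at 0.31 in LNCaP (516 to 685 units) and -0.76 in PC3 (483 to 276 units). Both spots lay in bright local backgrounds in LNCaP, whose part in the values was not tested, and the difference between the lines was not tested. No group had the 4 arrays needed to look for a sample apart from the others.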

How the results depend on the processing

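The labels give no replicate numbers, and the only pairing was by cell line, as the block in limma (without it 0 genes had an adjusted p under 0.05 as well, and 14 an unadjusted one). Of 161 alternative values of the comparisons, 134 stayed within 1 spot SD of the main value or, for counts, within 1.5 times it, and 27 moved further. Some alternatives could hardly move the ratios of the 10 genes. These were no filter on dim probes, as all 10 were well above background, and the deposited table, which has the main scaling. Most of the genes also have a single probe and spot. The numbers that stayed, here and below, are thus no measure of stability. With spike-in probes the median of the 10 genes in LNCaP was -0.10 with 6 genes lower, the median difference of the lines was -0.39, and the LNCaP medians were 0.027 for the mitosis list, -0.16 for MCM and GINS and -0.15 for kinesins. With the 50th percentile the PC3 median of the 10 was -0.20 with 0 at least 1.5-fold lower, the median difference of the lines was 0.10 with 2 genes lower in PC3, and the PC3 medians were -0.14 for the mitosis list, -0.76 for MCM and GINS and -0.27 for kinesins (-0.29 with normexp). The number at least 1.5-fold lower in PC3 was 2 with normexp, 0 at 2-fold and 7 at 20% below control, and in LNCaP it was 3 at 20% below control. Between the controls, the number at least 2-fold higher in PC3 was 0 with scaling by the 50th percentile, 3 by spike-in probes and 3 at 1.5-fold, the number higher at all was 7 with spike-in probes, and the median was -0.62 with the 50th percentile, 0.023 with cyclic loess and 0.34 with spike-in probes. The number of genes with an adjusted p under 0.05 in limma was 5 after scaling by the 50th percentile and 116 after scaling by spike-in probes, with 0 of the 10 genes among them in any setting. The causes were not tested. By the same bounds, 208 of the 269 alternative values of single genes stayed and 61 moved. The count of promoters with CHR letters was 5 with TTTGAA alone. Signal over background limited none of the 10 genes, but 11 of the 12 probes rest on 1 spot an array.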
